A study of Mus musculus with 2 samples.

Results

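PARIS is a KRAB zinc finger protein that is known as a transcriptional repressor and as a substrate of the ubiquitin ligase parkin. Its occupancy of chromatin was profiled by CUT&Tag, in which an antibody directs a transposase to cut the DNA around the bound protein. The regions described here are the peaks near microRNA genes. A peak was counted when the authors' annotation assigned it to a gene whose symbol starts with Mir and a digit, or with Mirlet7, at most 10000 bp from the start of that gene. This rule found 828 of the 99782 peaks with an annotation, which is 0.830%. The 828 peaks lay near 436 symbols. Hairpin genes made up 431 of the symbols and held 787 peaks, and 5 symbols named longer host transcripts, with 41 peaks. All material was hippocampus of CamK-PARIS mice of strain C57BL/6J, without treatment. The first group was a library made with an antibody to FLAG and the second a library made with IgG, with 1 library each. Both groups carry the same transgene, so neither shows chromatin of mice that lack it. The labels give no age, no number of animals, and no account of which cells the CamK element drives. Peaks came from the FLAG library with the IgG library as the control of the peak caller, so the list already has that background taken into account.

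A microRNA gene is transcribed into a long primary RNA, from which nucleases cut a hairpin and then a short mature strand. The mature strand guides Argonaute to messenger RNAs, mainly through its seed, bases 2 to 8 from its 5′ end, and lowers their translation or stability. Many hairpins lie inside introns of longer genes and are made from the host's transcript, so the start of the hairpin in an annotation is often not the place where transcription starts. In hippocampal neurons microRNAs are known for tuning dendrite growth, synaptic strength and the response to activity.

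The mature sequences below belong to loci with some of the highest or widest peaks, and are given to show which loci make the same or a related product. They were taken from RefSeq on GRCm38.p6, 5′ to 3′, with the seed in capitals.
mmu-miR-132-3p: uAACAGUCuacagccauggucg
mmu-miR-212-3p: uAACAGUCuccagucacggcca
mmu-let-7a-5p: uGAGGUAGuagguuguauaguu
mmu-let-7d-5p: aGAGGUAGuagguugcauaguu
mmu-miR-9-5p: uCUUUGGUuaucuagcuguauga
mmu-miR-129-5p: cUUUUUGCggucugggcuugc
mmu-miR-135a-5p: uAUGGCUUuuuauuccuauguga
mmu-miR-7a-5p: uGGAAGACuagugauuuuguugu
mmu-miR-1191b-5p: uCAGGCUAcagagcgagaaccu
The strands of miR-132 and miR-212 carried 1 seed, AACAGUC, and their hairpins sat under 1 peak. The let-7 strands carried the seed GAGGUAG and came from neighbouring hairpins on chromosome 13.

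The DNA at the highest point is shown for the 4 peaks named next, because they were among the highest or widest near any microRNA gene. Each window holds 200 bases centred on the region of maximum signal, on the plus strand of the mm10 build, with every CG in capitals.
Mirlet7a-1, chr13:48546466-48546665: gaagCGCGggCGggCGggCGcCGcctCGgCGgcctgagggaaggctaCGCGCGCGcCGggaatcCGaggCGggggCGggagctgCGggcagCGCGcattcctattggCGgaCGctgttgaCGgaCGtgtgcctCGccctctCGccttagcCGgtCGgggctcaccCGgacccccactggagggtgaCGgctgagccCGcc
Mir212, chr11:75172921-75173120: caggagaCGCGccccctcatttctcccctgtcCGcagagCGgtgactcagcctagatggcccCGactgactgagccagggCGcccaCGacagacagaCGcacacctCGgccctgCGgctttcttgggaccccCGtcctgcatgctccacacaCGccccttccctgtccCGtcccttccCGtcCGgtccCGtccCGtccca
Mir124a-1, chr14:64590187-64590386: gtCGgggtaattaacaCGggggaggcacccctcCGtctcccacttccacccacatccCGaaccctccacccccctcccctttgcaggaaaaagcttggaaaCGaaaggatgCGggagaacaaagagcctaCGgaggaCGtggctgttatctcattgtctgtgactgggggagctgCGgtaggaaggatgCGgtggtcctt
Mir129-2, chr2:94243012-94243211: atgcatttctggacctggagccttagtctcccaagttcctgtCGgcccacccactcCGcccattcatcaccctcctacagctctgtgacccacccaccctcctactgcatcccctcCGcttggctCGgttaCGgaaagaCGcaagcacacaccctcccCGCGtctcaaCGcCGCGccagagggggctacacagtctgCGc
The Mirlet7a-1 window held 30 CG pairs and had a GC content of 76%. The Mir212 window held 17 CG pairs at 68.5% GC, the Mir124a-1 window 10 at 58.5% and the Mir129-2 window 12 at 62.5%. The Mirlet7a-1 and Mir124a-1 windows overlapped an exon of a non-coding host transcript (6720427I07Rik and Mir124a-1hg), while the Mir212 window and the Mir129-2 window overlapped no annotated exon.

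With 1 library per antibody there is no replicate, so nothing here has a test of a difference. Intervals are 95% intervals over peaks or genes (exact binomial for shares, order statistics for medians). They cover the counting of peaks or genes and not the spread between animals. The deposited maximum signal has no stated unit, and the number of reads behind it is unknown.

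The 828 peaks had a median maximum signal of 105.5 (interval 101 to 111) and ranged from 7 to 763. The quartiles were 69 and 144. Over all annotated peaks on the main chromosomes the median was 101 (101 to 102), and over the 41513 peaks within the same distance of any other gene it was 106 (105 to 106). Peaks near microRNA genes were therefore about as high as peaks near other genes. The median width was 395 bp, against 363 bp for all peaks and 405 bp near other genes.

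A large part of the list had a flat profile: the total signal was at least 99% of the maximum multiplied by the width, as a single block of coverage gives. Of the 828 peaks, 467 had this constant height (56.4%, 52.9 to 59.8) and 361 did not. Over all annotated peaks the share of constant height was 63.3% (63.0 to 63.6) and that of other shape 36.7%. Near other genes the share of constant height was 56.7% (56.2 to 57.2). Flat peaks were narrow and moderate, with a median width of 239 bp and a highest value of 187. Peaks of other shape had a median maximum of 140 (131 to 152) and a median width of 623 bp. None of the 113 members in the highest 10% of all peaks, those with a maximum over 189, had a constant height. Such peaks were rare in the whole list too: 13 of the 9917 peaks in the highest 10%, and 6 of 5629 near other genes. The 113 were 13.6% of the members (11.4 to 16.2), beside a background of 9.95% of all peaks and 13.6% (13.2 to 13.9) of peaks near other genes.

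Members lay on both sides of the microRNA start, 389 upstream, 410 downstream and 29 at distance 0. Within 1000 bp, leaving out distance 0, the 89 upstream peaks had a median maximum of 121 (104 to 140) and the 79 downstream peaks 109, with an interval that began at 100. In the 267 peaks from 5001 to 10000 bp the median was 101 (91 to 116) upstream and 105 (99 to 116) downstream. The intervals of the 4 groups overlapped, and the difference between them was not tested. The 29 peaks at distance 0, described further on, had a median of 88 (56 to 120), an interval that held the 105.5 of all members. At the limit itself, the last peaks counted lay 9999 bp from Mir133c, with a maximum of 185, and 9997 bp upstream of Mir690. The first peaks left out lay 10090 bp from Mir21a, with a maximum of 108, and 10091 bp from Mir6366, with a maximum of 235.

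**Figure D1:**
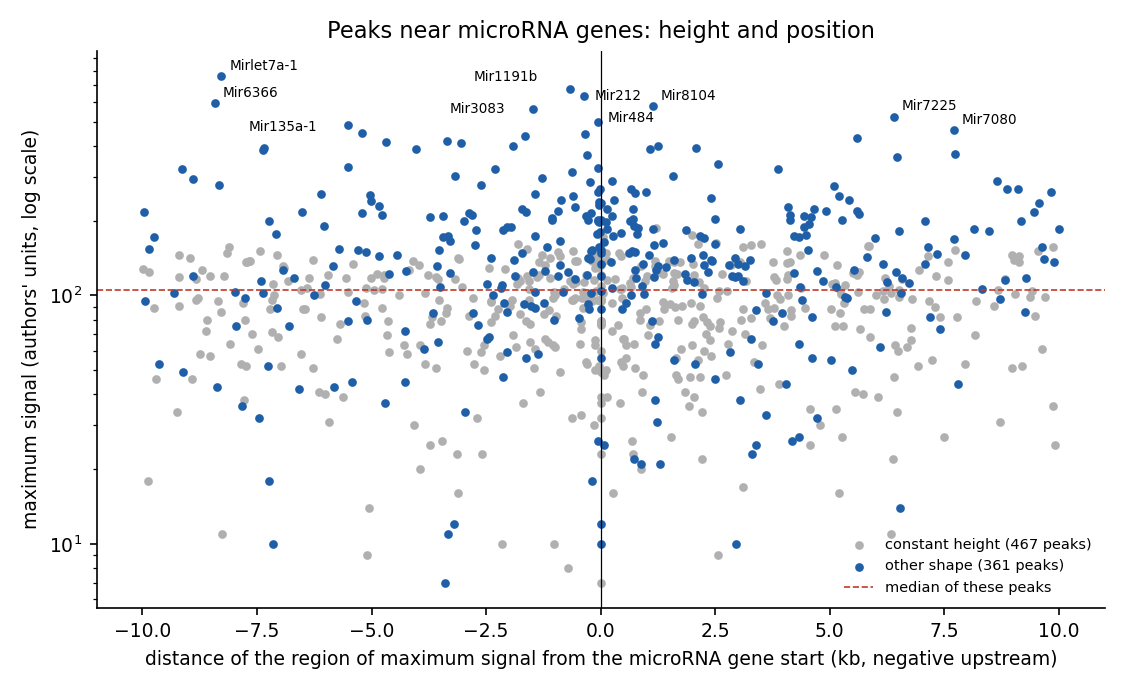
Each point is 1 of the 828 peaks. The x axis gives its distance from the start of the assigned microRNA gene in kb, and the y axis its maximum signal on a log scale. Grey points are peaks of constant height and blue points peaks of other shape. The 10 highest are named, and they lie at distances from 68 bp to over 8 kb, on both sides of the start.

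The highest peak, with a maximum of 763 and a width of 1189 bp, was assigned to Mirlet7a-1, a member of the let-7 family that is known for its role in developmental timing and differentiation. It lay at chr13:48545601-48546789, 8290 bp upstream of the hairpin and 66 bp from the start of 6720427I07Rik, the non-coding transcript that holds the hairpins of Mirlet7a-1 and Mirlet7f-1. The peak near Mir1191b (675, 2328 bp wide, chr10:81415961-81418288) covered the hairpin itself. The third highest, 633 over 3130 bp at chr11:75172024-75175153, covered the hairpins of both Mir212 and Mir132, microRNAs that are known to be induced by neuronal activity through CREB. It lay 461 bp from the start of their host transcript, 1700016P03Rik. The next members were near Mir6366 (595), Mir8104 (577), Mir3083 (563) and Mir7225 (524).

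The distance to the nearest start of a gene other than a microRNA gene varied among the highest peaks. The Mir8104 peak lay 1698 bp from the start of Ppm1h, a protein phosphatase gene. The Mir484 peak, at the 99.7th percentile of all peaks, covered the hairpin and lay 287 bp from the start of Marf1, on whose opposite strand Mir484 lies. The Mir135a-1 peak (484, 2692 bp wide) lay 5509 bp upstream of its hairpin and 76 bp from the start of its host transcript D030055H07Rik. The tenth, near Mir7080, had a maximum of 463 and lay 9187 bp from the start of Cpne7.

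At the wide end of the range, 8 members were at least 2000 bp wide (0.966%, 0.418 to 1.89), beside a background of 0.278% of all peaks and 0.467% (0.404 to 0.538) of peaks near other genes. This width was chosen after the values were seen. The widest was the Mir129-2 peak at chr2:94241402-94245925, 4524 bp wide with a maximum of 437, and overlapped the hairpins of Mir129-2 (57.8% of its length) and Mir129b (63.1%). The next was 4465 bp wide with a maximum of 447, at chr14:64586832-64591296, over the hairpins of Mir124a-1 and Mir3078. Mir124a-1 encodes miR-124, an abundant microRNA of neurons. The other 6 were near Mir212, Mir135a-1, Mir3083, Mir1191b, Mir7-2 (2273 bp wide, maximum 152) and Mir125b-2 (2105 bp wide, maximum 217). Width and height did not always go together, since the wide Mir7-2 peak was not among the highest 10% of all peaks.

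**Figure D2:**
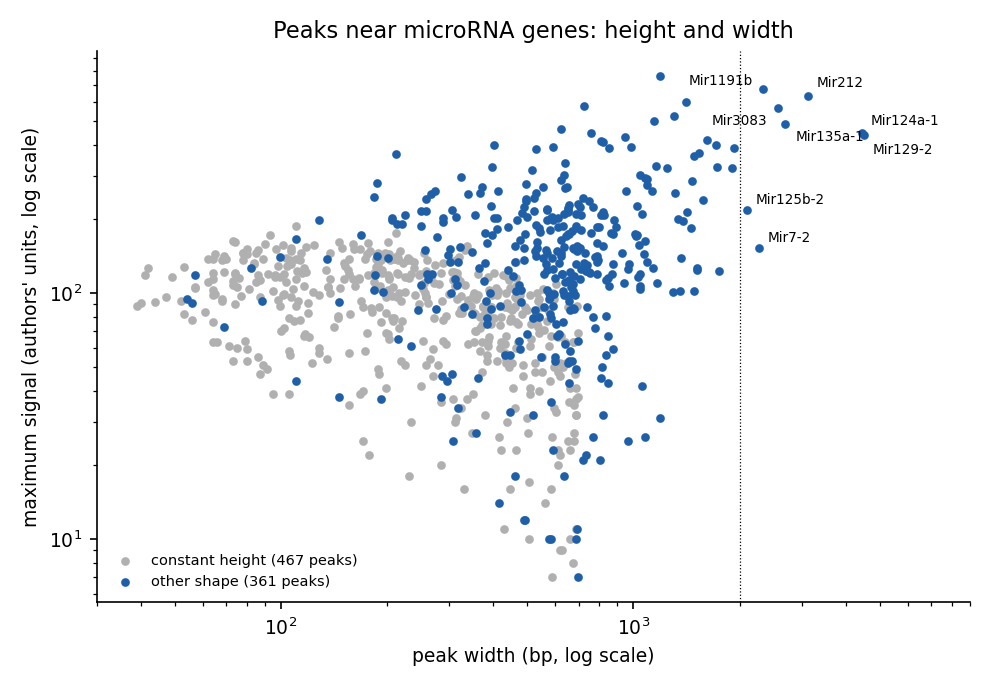
The plot shows the maximum signal of each of the 828 peaks against its width in bp, both on log scales. Grey points are peaks of constant height and blue points peaks of other shape, and the dotted line marks 2000 bp. The 8 peaks to the right of the line are named, and all are blue.

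At the other end of the rule, 29 peaks lay at distance 0 from the microRNA start. Their median maximum was 88 (56 to 120), and flat members as a whole had a median of 92 (88 to 96). Distance was taken from the region of maximum signal, which can span most of a flat peak. The part of shape in the median at distance 0 was not tested. Of the 29 peaks, 9 had other than constant height (31.0%, 15.3 to 50.8), beside 361 of the 828 members and 36.7% of all annotated peaks. The highest was a second peak near Mir8104, with a maximum of 236 and a width of 496 bp, 517 bp from the start of Ppm1h. Mir7032 and Mir721 followed with 152 each, then Mir365-2 with 149 and Mir100hg, the transcript that hosts miR-100, with 148. Next came Mir133c at the 76.8th and Mir6349 at the 74.4th percentile of all peaks, then Mir713 with 121, Mir344b with 120 and Mir6516 with 109. Of these, the Mir721, Mir365-2, Mir133c, Mir713 and Mir6516 peaks had constant height. In all, 54 members overlapped a named hairpin by at least 1 bp.

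Most microRNA genes had few members: 240 of the 436 symbols had 1 peak and 99 had 2. The symbols with the most were Mir9-3hg with 17 peaks, Mir100hg with 13, Mir124a-3 with 8 and Mir1966 with 7, followed by a group with 6 each that includes Mir3089. Mir9-3hg and Mir100hg are host transcripts and not single hairpins, so peaks near any start that the authors' table used for them were counted together. The 17 peaks of Mir9-3hg had maxima from 39 to 387, and the 13 of Mir100hg from 7 to 269.

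A member was within 1000 bp of the start of a gene other than a microRNA gene in 84 cases (10.1%, 8.17 to 12.4). The background over all annotated peaks was 17%. The rule bears on this share, because a peak at another gene's start was often assigned to that gene. Members at another gene's start had a median maximum of 120, with an interval that began at 96 and so overlapped that of the remaining 744, at 104 (100 to 110). Of the 84, 21 were in the highest 10% of all peaks (25%, 16.2 to 35.6), and of the 744, 92 were (12.4%, 10.1 to 14.9). Over all annotated peaks the same split gave 20.2% (19.6 to 20.8) at a start and 7.85% (7.67 to 8.04) farther away.

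The rule leaves out peaks that lie near a hairpin but were assigned to another gene. A count from the side of the genes was therefore made with the 1174 named hairpin genes of the GENCODE M21 annotation and every peak in the list. A peak lay within 10 kb of 781 of them (66.5%, 63.7 to 69.2) and within 1 kb of 259 (22.1%, 19.7 to 24.5), and a peak overlapped the hairpin of 83. For comparison, the 10 kb and 1 kb shares were 67.6% and 39.3% over 21938 starts of protein-coding genes, and 51.0% and 17.9% over 5847 lincRNA starts. At 1 kb the microRNA share was thus below that of coding genes and above that of lincRNA genes (16.9 to 18.9). Predicted microRNA genes with Gm symbols had fewer still at 1 kb (12.5% of 1021), and 510 of the 1021 had one within 10 kb.

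The surroundings of the hairpin went with these shares. Among 301 microRNA genes that start within 1 kb of another gene's start, 36.5% (31.1 to 42.3) had a peak within 1 kb. Among 485 that start 1 to 10 kb away the share was 19.6% (16.1 to 23.4), and among 388 farther out it was 13.9% (10.6 to 17.8). Hairpins outside longer genes had a peak within 10 kb in 53.8% of 260 cases. Those on the same strand inside a gene not annotated as protein-coding had one in 100 cases, 79.4% (71.2 to 86.1) of their class. On chromosome X, 24 of 90 microRNA genes had a peak within 10 kb (26.7%, 17.9 to 37.0), against 69.8% (67.0 to 72.6) of 1084 on autosomes. Chromosome X held 1974 of the 99797 peaks in the list, and its protein-coding genes also had a lower share, 42.0% (38.8 to 45.2) of 948 against 69.3% (68.7 to 70.0) of 20807 on autosomes. Whether sex, copy number or mappability has a part in the X value was not tested.

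**Figure D3:**
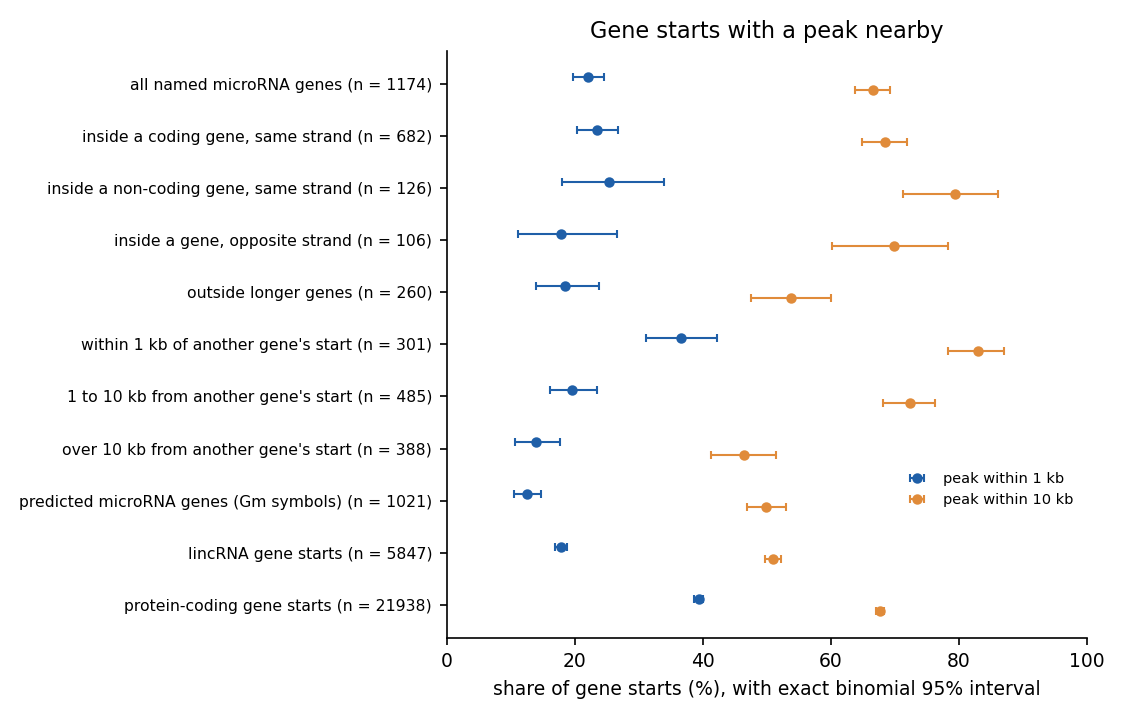
Points give how many starts, in percent, lay within 1 kb (blue) or 10 kb (orange) of a peak, for microRNA genes as a whole and by surroundings, and for 3 other gene classes. Bars are exact binomial 95% intervals. In the labels, a non-coding gene is any host not annotated as protein-coding. At 1 kb the microRNA genes (22.1%) lie between lincRNA starts (17.9%) and protein-coding starts (39.3%).

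Since an intronic hairpin is made from its host's transcript, the start of the host was examined as well, a comparison chosen after the data were seen. The 682 hairpins on the same strand as a protein-coding gene lay in 566 such hosts, at a median of 21785 bp from the host's start. A peak lay within 1 kb of the start of 345 hosts (61.0%, 56.8 to 65.0). Over all 21938 starts of protein-coding genes that share was 39.3% (38.7 to 40.0). For the 635 hairpins more than 1 kb from that start, a peak was within 1 kb of the host start in 334 cases (52.6%, 48.6 to 56.5) and within 1 kb of the hairpin in 130 (20.5%, 17.4 to 23.8). Both held for 99 hairpins, the host start alone for 235, the hairpin alone for 31 and neither for 270. Hairpins of the same host share its start, so these cases are not independent. Mir7-1 lies in an intron of Hnrnpk, the gene of an RNA-binding protein. Its highest peak within 10 kb, 549 over 2102 bp, lay 6 bp from the start of Hnrnpk and was assigned to Hnrnpk.

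Lists of microRNAs by the tissue or cluster they are known from were then read from the side of the genes. In the neuron-enriched list, 32 of 35 genes had a peak within 10 kb, 17 within 1 kb and 19 a peak in the highest 10%. Over all 1174 named genes the counts were 781, 259 and 267, or 66.5%, 22.1% and 22.7%. The neuron list's shares were 91.4% (76.9 to 98.2), 48.6% (31.4 to 66.0) and 54.3% (36.6 to 71.2). The 3 without a peak within 10 kb were Mir135a-2, Mir383 and Mir7j. Mir7j and Mir7k, which had a flat peak of 98, are in the list by their number although RefSeq names their mature strands let-7j and let-7k. Neighbouring hairpins share peaks, so the list rests on 58 distinct peaks of constant height and 64 of other shape, with 25 in the highest 10% (20.5%, 13.7 to 28.7). Over the 1751 distinct peaks near any named hairpin that share was 16.2% (14.5 to 18), and the intervals overlapped.

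Lists from other tissues were mixed. Over all named genes, 66.5% had a peak within 10 kb and 22.7% a peak in the highest 10%. None of the 5 epithelial genes of the miR-200 family had a peak within 10 kb (0 to 52.2%). The same held for the 3 sensory genes Mir96, Mir182 and Mir183 (0 to 70.8%). These lists are small, and hairpins that lie close together are not independent cases. The 13 embryonic stem cell genes all had one, but these were 2 distinct peaks shared by 2 clusters. The one near Mir290a to Mir295 had a maximum of 27, neither was in the highest 10%, and neither came within 1 kb of a hairpin. In the muscle list, 8 of 11 genes had a peak within 10 kb and 2 a peak in the highest 10%. The higher of these, near Mir208b inside the cardiac myosin gene Myh7, reached 326 and covered the hairpin. In the pancreas and gut list all 5 genes had a peak, and the list's highest was the 459 peak within reach of Mir375, a microRNA of pancreatic islets. This peak lay 224 bp from the start of Cryba2 and was assigned to it, while a peak of 214 covered the Mir375 hairpin. High peaks were thus found near some microRNAs whose known tissue is not the brain.

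Among lists of glia and blood cells, all 5 oligodendrocyte genes (Mir338 and the miR-219 loci, which the neuron list also holds) had a peak in the highest 10%, against 22.7% of all named genes. Overlapping hairpins on opposite strands (Mir219a-1 with Mir219c, and Mir219a-2 with Mir219b) share their peaks, so the 5 genes are 3 loci. Their highest was a peak of 325 near Mir219a-1, and it was assigned to H2-Ke6. Of 7 blood and microglia genes 5 had a peak within 10 kb and 2 a peak in the highest 10%, with Mir146b highest at 361, and Mir155 and Mir223 had none. As a check of the tissue, a peak lay within 1 kb of a start for 6 of 8 hippocampal neuron marker genes, 1 of 5 astrocyte, 1 of 5 oligodendrocyte, 2 of 5 microglia and 0 of 4 liver marker genes. The share over all protein-coding gene starts was 39.3%, and with 4 to 8 genes a list these counts were not tested against it. Neurod6 and Zbtb20 were the neuron markers without a peak, and the astrocyte and microglia peaks all had constant height. Peaks of a repressor do not measure expression, and the part of glial nuclei in the microRNA peaks was not tested.

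**Figure D4:**
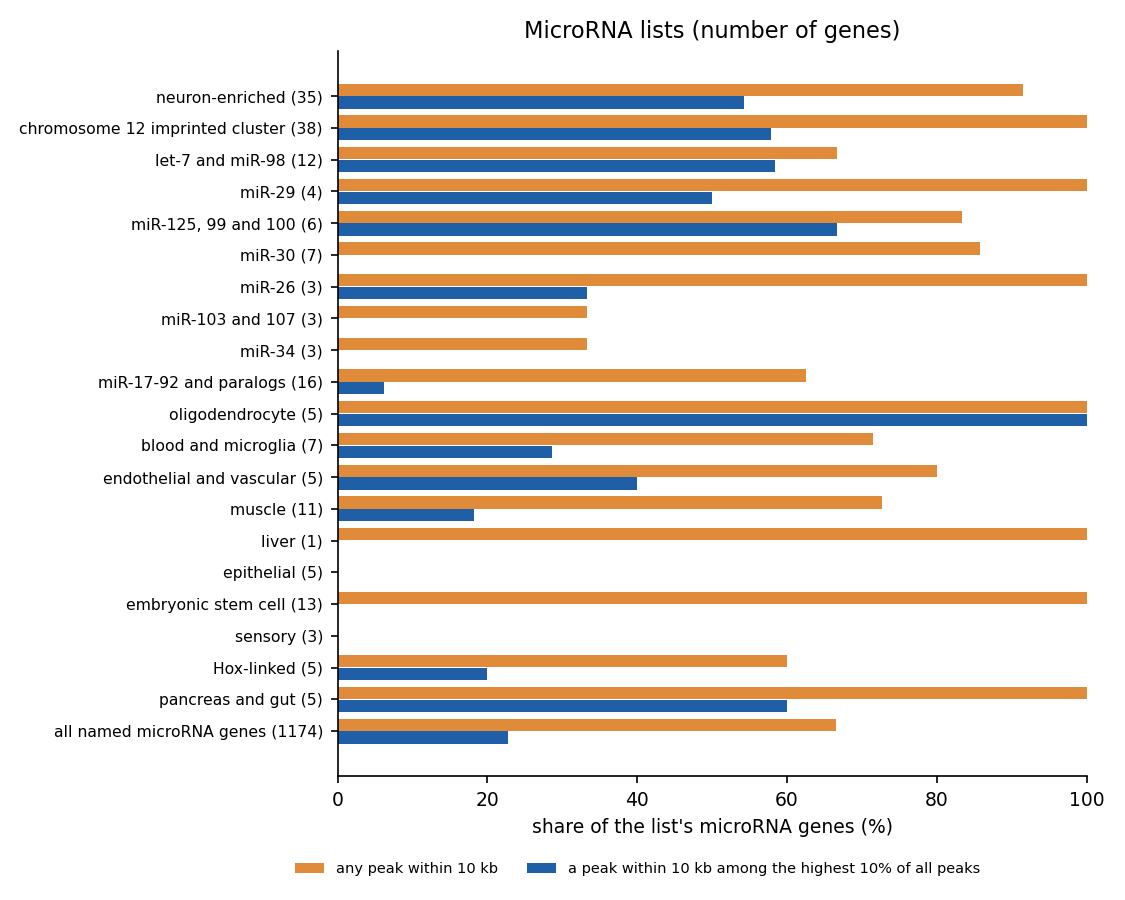
Bars give, for each list of microRNA genes (number of genes in brackets), the share with any peak within 10 kb (orange) and with a peak among the highest 10% of all peaks (blue), in percent from 0. The neuron-enriched list stands at 91.4% and 54.3%, and all named microRNA genes at 66.5% and 22.7%. The epithelial and sensory lists, of only 5 and 3 genes, stand at 0.

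The neuron loci were examined peak by peak. Within 10 kb of Mir124a-1 there were 7 peaks covering 8024 bp, with maxima of 118, 110, 447, 151, 46, 173 and 86 in the order of the chromosome. Only the 447 peak covered the hairpin. Mir124a-2 had 5 peaks over 1665 bp, from 26 to a peak at the 92.9th percentile of all peaks. All 5 lay upstream and were assigned to Mir124-2hg. Mir124a-3 had 8 peaks over 2894 bp, the lowest at 30, and 6 of them had constant height. The 3 miR-124 loci thus differed in peak shape and covered length, with the wide peak at Mir124a-1 alone.

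Near Mir212 and Mir132 there were 6 peaks over 6824 bp, with maxima of 131, 220, 127, 362, 633 and 101 along the chromosome. The first 4 were assigned to Hic1, a zinc finger repressor gene, and the last to Ovca2. Mir9-1, Mir9-2 and Mir9-3, which make a microRNA known from neural progenitors and neurons, had highest maxima of 255, 458 and 259. At Mir9-2 the 458 peak lay 7736 bp upstream and a flat peak of 95 overlapped 45.8% of the hairpin. At Mir9-3 there were 9 peaks, 8 of them of other than constant height, covering 5738 bp and none over the hairpin. Mir129-1 and Mir129-2 had highest maxima of 449 and 437, but the Mir129-1 peak was 756 bp wide and lay 5262 bp upstream, while the Mir129-2 peak was 4524 bp wide and reached the hairpin.

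Loci that encode the same mature strand gave a comparison within a product, chosen after the data were seen. RefSeq listed 42 such families with 92 loci. Its entries held no miR-124 strand and gave let-7a-5p at Mirlet7a-1 alone. The Mir124a loci, and the pair of Mirlet7a-1 and Mirlet7a-2, are therefore not counted as families here. All loci had a peak within 10 kb in 22 families, some in 11 and none in 9. These counts are not independent. Some loci of a family lie side by side and share their peaks, such as Mir5615-1 with Mir5615-2 and Mir3070a with Mir3070b. Some loci, such as Mir465c-1, are in more than 1 family. Within miR-135a, Mir135a-1 had 7 peaks with a highest of 484, and Mir135a-2, in an intron of Rmst, had none, with the nearest peak 31422 bp away. Mir7-1 reached 549 and Mir7-2 152. Mir29b-1 reached 385 and Mir29b-2 111. Mirlet7f-1 reached 763, by the peak it shares with Mirlet7a-1, and Mirlet7f-2 on chromosome X had none within 10 kb. Other pairs were close, such as Mir26a-1 at 167 and Mir26a-2 at 171, and Mir218-1 at 131 and Mir218-2 at 116. The cause of these differences was not tested, and 1 library gives no spread to set them against.

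**Figure D5:**
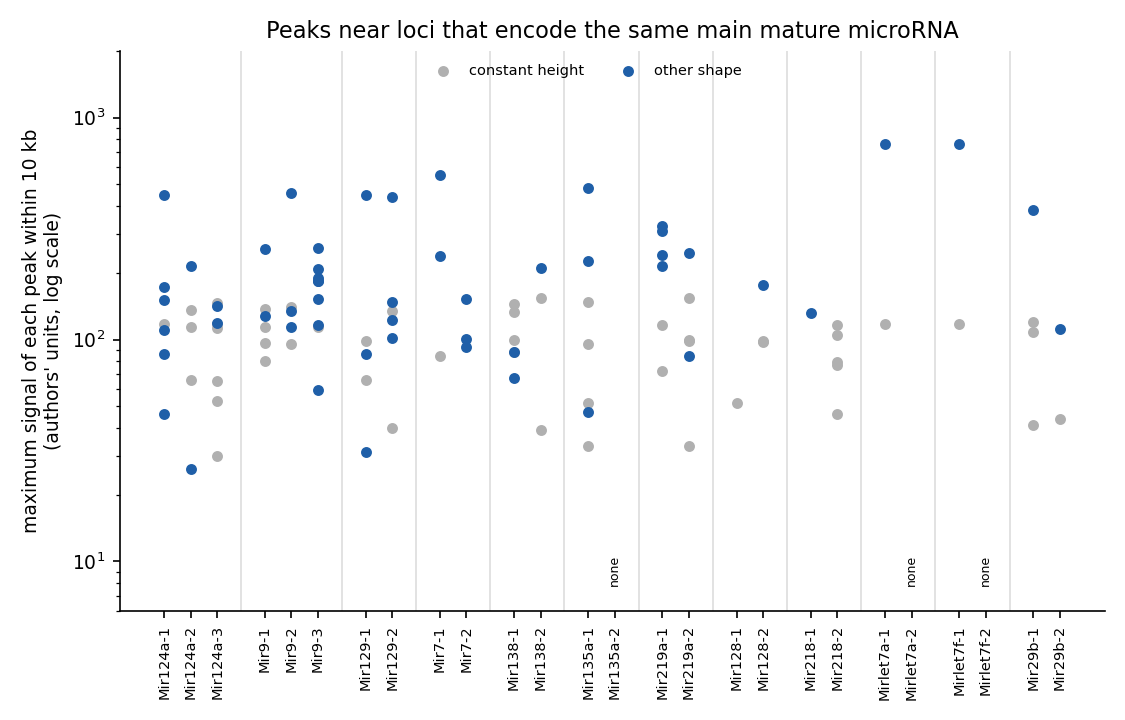
Each point is a peak within 10 kb of the locus named on the x axis, with its maximum signal on a log scale on the y axis. Loci that make the same main mature microRNA stand together between vertical lines, grey points have constant height, and "none" marks a locus without a peak. Mir135a-1 reaches 484 and Mir135a-2 has none, while Mir129-1 and Mir129-2 stand at 449 and 437. The Mir124a loci, and Mirlet7a-1 with Mirlet7a-2, are grouped by name and are not among the families counted from RefSeq.

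Clusters showed how few peaks can serve many genes. The imprinted cluster on chromosome 12 held 38 genes from Mir379 to Mir410, and all 38 had a peak within 10 kb, but only 5 distinct peaks lay there, with maxima from 47 to 323. Only 4 of the 38 genes had one within 1 kb, and none had one over the hairpin. The highest, 1900 bp wide at chr12:109706124-109708023, lay 2368 bp upstream of Mir379, the first hairpin, and was the peak that put 14 genes in reach of a value of 323. In the let-7 list, 8 of 12 genes had a peak within 10 kb (66.7%, 34.9 to 90.1), beside 66.5% of all named genes. A peak in the highest 10% was near 7 of the 12 (58.3%, 27.7 to 84.8), beside 22.7%. These genes share peaks: of 17 distinct ones 4 were in the highest 10% (23.5%, 6.81 to 49.9). Over all 1751 distinct peaks that share was 16.2%. Mirlet7e shared a peak of 698, 2593 bp wide, with Mir99b, in Spaca6 and 327 bp from a start of that gene. The 6 genes of the Mir17 cluster shared 2 peaks, the higher at 96, and the 6 of its paralog on chromosome X had none within 48 kb.

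The 200 bp windows at the members had a GC content of 51.5% ± 7.91 (SD, n = 828 windows), against 49.0% ± 8.91 over all annotated peaks and 52.2% ± 9.68 over peaks near other genes. Members at another gene's start had 54.6% ± 9.38 (n = 84) and the others 51.1% ± 7.66 (n = 744). PARIS is known to bind insulin response sequences, which were searched as TATTTTT or TATTTTG on both strands. A match lay in the window of 63 members (7.61%, 5.90 to 9.63), in 9.97% of all annotated peaks, and in 7.89% (7.63 to 8.15) of peaks near other genes, a share inside the members' interval. The share went with base composition: below 45% GC it was 20.7% (14.9 to 27.5) in members and 22.0% in all peaks, and from 55% GC it was 2.51% (1.01 to 5.10) and 1.34%. Members with a match had a median maximum of 96 (80 to 118) and those without 106 (102 to 112).

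The highest member with a match lay near Mir3089, with a maximum of 400 and a width of 1718 bp. Its window is shown to place the match, which is in capitals and starts at base 167.
Mir3089, chr2:30719184-30719383, plus strand, mm10: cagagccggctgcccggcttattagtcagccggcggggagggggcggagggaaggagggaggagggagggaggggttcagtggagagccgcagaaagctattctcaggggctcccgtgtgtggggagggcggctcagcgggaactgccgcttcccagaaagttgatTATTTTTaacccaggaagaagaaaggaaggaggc
None of the 10 highest members had a match within its window, beside 7.61% of all members and 5.31% of members in the highest 10%. Over all annotated peaks the share was 9.97%. At such shares 10 windows often hold none, and the difference was not tested. These letters are short and a match is a description of the window, not a site of binding.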

How the data were processed

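CUT&Tag was run on hippocampus of CamK-PARIS mice, with 2 samples: 1 anti-FLAG and 1 IgG library. Per the labels' protocols, the authors aligned reads to mm10 with Bowtie2, removed duplicates, and called peaks with SEACR against IgG; tool versions, the SEACR mode and the annotation tool are not given in the sources used here. The deposited peak list gives a total and a maximum signal per peak, and the deposited annotation table adds the nearest gene and a signed distance to its start. Depth is unknown and the coverage tracks were not used here. Of the annotated peaks, 75 off the main chromosomes were left out of summaries over all peaks.

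Members, lists and comparisons were chosen with earlier results of these data known. Named peaks are the 10 highest, the 10 highest at distance 0, the 5 genes with most peaks, the best gene of each list and those with a peak over the hairpin, and the 2 peaks on each side of the limit; the wide peaks and the loci with the same mature strand were added later. Hairpins, hosts and starts came from GENCODE M21 and windows from the GRCm38.p6 genome. RefSeq's microRNA table matched 1021 of 1174 hairpin genes and 392 of 431 member hairpin symbols. Shares have exact (Clopper-Pearson) and medians order-statistic 95% intervals. Scripts ran in Python 3.11.15 with numpy 2.4.6, pandas 2.3.3 and scipy 1.17.1, and were tested on simulated peaks. Alternatives are given in the closing section.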

Additional observations from a re-analysis of the deposited data

How the results depend on the processing

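The 7 results were recomputed under 58 alternatives; 34 values stayed within the interval of the reported value (1 SD for GC content, 1.5 times for the count) and 24 did not, none of them with a change of direction, since no result is a signed difference. Leaving out chromosome Y could move no value, because no member and no named hairpin gene lay there. The GC interval was the SD over single windows, so wide that 56.5% in the highest 10% counted as within it. No paired analysis was possible because each antibody had 1 library. Why values moved was not tested for any of the alternatives. The count of 828 became 440 with peaks above the median of all peaks, 113 with the highest 10%, 197 within 1 kb and 1719 with every peak whose middle lay within 10 kb of a named hairpin gene, whatever gene it was assigned to. The share of constant height became 41.4%, 0% and 44.7% with peaks above the median, the highest 10% and peaks at least 200 bp wide. The median maximum became 113 within 1 kb and 87.6 as total signal divided by width. The share near another gene's start became 18.6% in the highest 10% and 24.9% within 1 kb. It became 5.80%, 25.6% and 3.62% with 500 bp, 3 kb and coding genes only. The share of microRNA genes with a peak within 1 kb became 14.6%, 5.54% and 18.4% with the same 3 selections of peaks, 66.5% at 10 kb, 7.07% with a peak over the hairpin, 6.05% with a peak over at least 50% of it and 12% with peaks of other than constant height. The share with TATTTTT or TATTTTG became 5.31% in the highest 10%, 10.2% within 1 kb and 14.3% in 400 bp windows. With 1 library, unknown depth and no replicate, no interval here covers differences between animals.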
